A study of Homo sapiens with 60 samples.

Results

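CTDSP1, KLHL13 and CPA4 are 3 of the 62703 genes in the deposited count table, chosen by hand for the large fall of their transcripts after 24 h of arsenic in 1321N1 cells, a human astrocytoma line. The comparison of arsenic with non-treated cells at 24 h therefore picked these genes, and its values are given below as a description without a test. Of all genes, 12341 had enough counts to be tested, the 3 genes among them, and 7253 had a mean of at least 50 counts over the 60 libraries. Ordered by log2 fold change (LFC) after 24 h of arsenic, CTDSP1 ranked 1 of these 7253 genes, KLHL13 ranked 2 and CPA4 ranked 4. TNFAIP3, an inhibitor of NF-kB signalling that is not one of the 3 genes, ranked 3 with an LFC of -2.15 (SE 0.32) and a mean of 50.4 counts, close to that minimum. The gene next below CPA4, listed as ENSG00000230615 without a name, had an LFC of -1.98, against -2.01 for CPA4.

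Cells were given 2.55 µM sodium metaarsenite (arsenic), 2.3 µM cadmium chloride (cadmium) or 20 µM mercury chloride (mercury), or were left non-treated, and were collected at 1.5, 3, 6, 12 or 24 h. This gave 20 groups of 3 libraries each, all from the same line, and the study set each concentration for a limited loss of viability at a later time. The labels call the libraries of a group technical triplicates, so the p-values below measure the spread between these libraries, which may be technical. Polyadenylated RNA was read from its 3′ end, so that a transcript gives about 1 read whatever its length, and values are CPM, counts scaled to a common library size after TMM normalization, unless stated otherwise.

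The products of the 3 genes act in unrelated processes. CTDSP1 encodes a small phosphatase that removes phosphate from the C-terminal tail of RNA polymerase II, and the REST repressor brings it to neuronal genes that non-neuronal cells keep silent. KLHL13 encodes a substrate adaptor of the CUL3 ubiquitin ligase which, together with KLHL9, acts on the mitotic kinase Aurora B (AURKB). CPA4 encodes a secreted carboxypeptidase, a zinc enzyme of the M14 family that trims residues from the C-terminal end of peptides, and has been studied as an imprinted gene.

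The table placed all 3 genes on GRCh38. CTDSP1 (ENSG00000144579.8) spans chr2:218398256-218405941 on the plus strand, KLHL13 (ENSG00000003096.15) spans chrX:117897813-118117340 on the minus strand, and CPA4 (ENSG00000128510.12) spans chr7:130293134-130324180 on the plus strand. Their raw counts per library ran from 18 to 374 for CTDSP1, from 13 to 144 for KLHL13 and from 33 to 315 for CPA4, so none was at 0 anywhere. The basic transcripts of GENCODE 44 have 7 different 3′ ends for CTDSP1, 3 for KLHL13 and 2 for CPA4. Only the end of the canonical transcript was checked, and reads may also come from the others. The last 400 bases of the canonical transcript overlapped no exon of another gene on the same strand for any of the 3. Stretches of 50 bases from this end were found in no transcript of another gene for CTDSP1 and KLHL13, and in 1.71% of cases for CPA4.

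CTDSP1 carries the microRNA gene MIR26B inside intron 4 of its canonical transcript, on the same strand (chr2:218402646-218402722). The closest relatives of CTDSP1 share this arrangement, with MIR26A1 in intron 5 of CTDSPL and MIR26A2 in intron 5 of CTDSP2. The mature 5p sequences from RefSeq (GRCh38.p14) are shown because the same host family carries the same seed, bases 2 to 8, which is in capitals.
hsa-miR-26b-5p: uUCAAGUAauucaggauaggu
hsa-miR-26a-5p: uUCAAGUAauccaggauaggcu
A 3′ library of polyadenylated RNA does not measure mature microRNAs, and the 3 microRNA genes had at most 1 count in any library.

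The promoters are shown because all 3 transcripts were lower after 12 h of arsenic and of mercury, as described further on. Each is the stretch of 250 bases before the RefSeq start (GRCh38.p14) that coincides with the start of the GENCODE canonical transcript, read on the strand of the gene. RefSeq lists 7 starts for CTDSP1, 2 for KLHL13 and 1 for CPA4. Capitals mark matches, on either strand, to 8 short motifs: TGCNCNC (core of the metal response element), TGACNNNGC (core of the antioxidant response element), TGANTCA (AP-1), TGATGNAA (C/EBP-ATF), GAANNTTC (heat shock element), GGGCGG (SP1), CACGTG (E-box) and CCAAT.
CTDSP1, chr2:218399618-218399867, plus strand: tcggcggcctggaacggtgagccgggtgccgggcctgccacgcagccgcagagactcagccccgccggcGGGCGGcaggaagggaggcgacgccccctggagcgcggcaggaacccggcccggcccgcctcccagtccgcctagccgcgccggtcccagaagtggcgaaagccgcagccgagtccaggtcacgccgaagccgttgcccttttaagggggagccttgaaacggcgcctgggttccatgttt
KLHL13, chrX:118116811-118117060, minus strand: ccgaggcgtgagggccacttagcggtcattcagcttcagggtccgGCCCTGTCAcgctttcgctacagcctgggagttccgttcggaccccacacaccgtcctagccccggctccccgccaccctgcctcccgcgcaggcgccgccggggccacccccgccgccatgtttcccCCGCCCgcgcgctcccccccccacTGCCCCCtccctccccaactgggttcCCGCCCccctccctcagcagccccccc
CPA4, chr7:130292911-130293160, plus strand: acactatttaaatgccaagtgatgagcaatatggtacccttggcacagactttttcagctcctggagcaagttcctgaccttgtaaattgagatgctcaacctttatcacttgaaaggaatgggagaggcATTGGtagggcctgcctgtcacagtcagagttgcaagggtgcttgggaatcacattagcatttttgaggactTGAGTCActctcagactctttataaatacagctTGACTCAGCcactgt

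The CTDSP1 and KLHL13 promoters were rich in G and C, at 72.8% and 74.8%, with 30 and 23 CpG dinucleotides, against medians of 58% and 11 over the 35114 RefSeq promoters of this length. The CPA4 promoter had 44.4% G and C and no CpG. TGANTCA matched at 2 places in the CPA4 promoter, and 6.57% of all promoters held it. The second of these places overlapped the single TGACNNNGC match there, a motif found in 10.9% of promoters and once in KLHL13. GGGCGG, present in 42.6% of promoters, matched at 1 place in CTDSP1 and 2 in KLHL13, while CCAAT (32%) matched once in CPA4 and TGCNCNC (49.1%) once in KLHL13. None of the 8 motifs was in all 3 promoters, and TGATGNAA (3.14% of promoters), GAANNTTC (5.78%) and CACGTG (6.35%) matched in none of them. A match is only a run of letters and does not show a bound factor.

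Total counts per library lay between 2215276 and 4404609, and the biological coefficient of variation common to all genes was 0.12. The defining astrocyte markers GFAP, S100B, AQP4 and ALDH1L1 had at most 3 counts in any library, whereas VIM averaged 4404 CPM, CD44 384 CPM and SOX9 77 CPM. All 4 endothelial markers were at 3 counts or fewer throughout, the 5 oligodendrocyte and 5 microglia markers summed to at most 1.56 and 2.2 CPM, and the 5 epithelial markers to 46.9 to 94.7 CPM. At 12 h SOX9 was lower with arsenic (LFC -0.65, adjusted p = 0.00388) and higher with cadmium (0.55, adjusted p = 0.00859), CD44 (0.37) and GJA1 (0.70) were higher with cadmium, and the neuron marker SYT1 (0.79) and the epithelial marker KRT18 (0.62) were higher with mercury; no other marker was called, and their part in the results below was not tested. Mitochondrial reads made up 1.35 to 7.94% of a library, and 2 libraries stood low, arsenic 3 h replicate 2 (1.91%) and cadmium 6 h replicate 1 (1.35%). Results that change without either library are named where they occur.

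The 24 h arsenic values that chose the genes were as follows. CTDSP1 stood at 20.1, 15.3 and 13.8 CPM in the 3 arsenic libraries and at 96.3, 91.3 and 73.3 CPM in the non-treated ones, an LFC of -2.41 (SE 0.19, n = 3) or a level of 18.9% of non-treated. KLHL13 stood at 8.03, 9.84 and 6.77 CPM with arsenic against 34.5, 39.3 and 41.5 CPM without it (LFC -2.22, SE 0.22). CPA4 had 18.4, 17.7 and 9.72 CPM with arsenic and 53.8, 58.1 and 72.7 CPM in non-treated cells (LFC -2.01, SE 0.24). Its arsenic mean was similar at 12 h (16 CPM) and 24 h (15.3 CPM), while the non-treated mean was 29.8 CPM at 12 h and 61.5 CPM at 24 h. At 24 h the groups did not overlap for any of the 3 genes, as the choice of genes makes likely. How often this held over all genes was not counted. By the test, a different measure, 7.75% of all tested genes passed as lower in this comparison. In these bulk libraries, less transcript per cell and the loss of the cells that held most of it cannot be told apart. The summed level of the 12 astrocyte markers, mostly VIM, was 3527 to 3799 CPM in the arsenic libraries and 4093 to 5014 CPM in the non-treated ones at 24 h, and its part in the result was not tested.

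**Figure D1:**
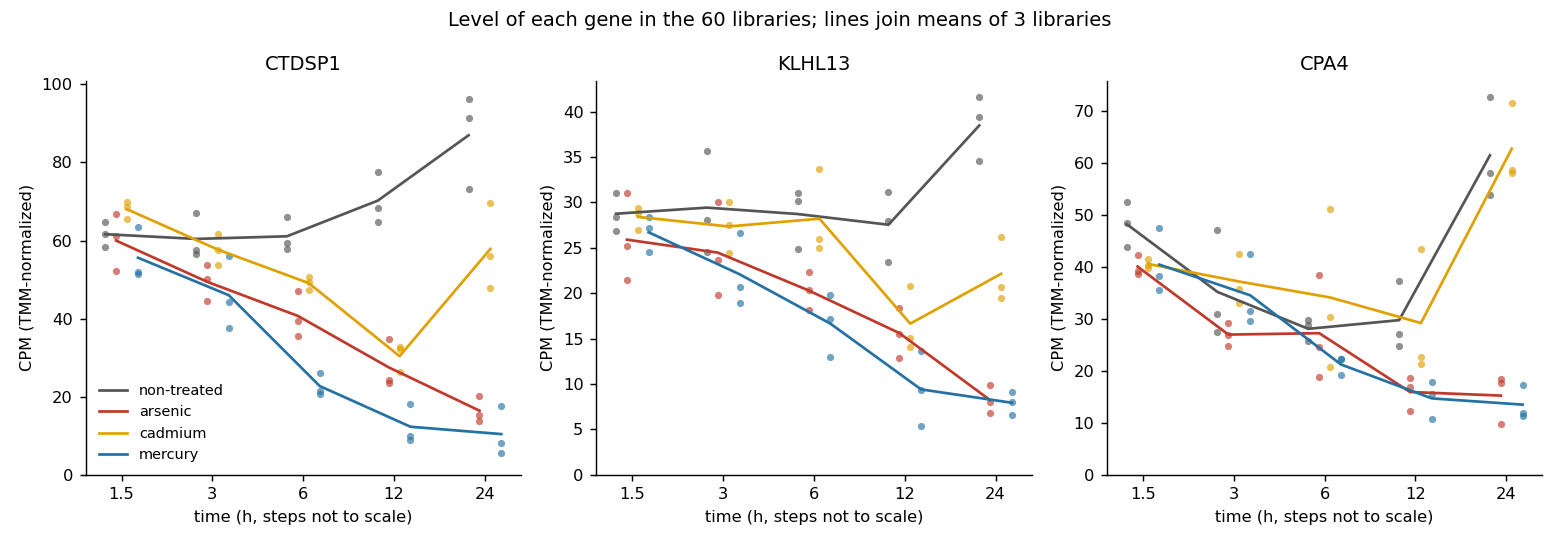
Level of CTDSP1, KLHL13 and CPA4 in CPM (vertical axis, from 0) at 5 times (horizontal axis) in each of the 60 libraries (points), with lines through the means of 3 libraries for non-treated, arsenic, cadmium and mercury. Mercury and arsenic end near the bottom at 24 h for all 3 genes, whereas cadmium dips for CTDSP1 at 12 h (mean 30.4 CPM) and stands at 57.9 CPM at 24 h.

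The stated reason for the choice was the 24 h arsenic fall alone, and the other times and metals were tested. The genes were picked by hand with earlier results of these data known, so these tests may not be independent of the choice. TNFAIP3, which ranked 3 in the 24 h order and was not picked, had a different pattern at 12 h. Its LFC was -0.57 for arsenic and 0.44 for mercury, neither called, and 1.17 for cadmium, called higher. At 1.5 and 3 h none of the 3 genes passed the test with any metal, when the share of all genes called lower was 0.0081 and 0.0162% for arsenic, 0 and 0% for cadmium, and 0.0891 and 0.154% for mercury. At 6 h none passed with arsenic (background 0.308%) or cadmium (0.446%), while CTDSP1 and KLHL13, 2 of 3, passed as lower with mercury (2.99%). At 12 h all 3 genes were lower with arsenic (1.74%) and with mercury (7.16%), and CTDSP1 and KLHL13 were lower with cadmium (2.99%). Calls were made at an adjusted p under 0.05 in edgeR's quasi-likelihood test, over all 12341 genes of a comparison.

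CTDSP1 had the largest LFCs of the 3 genes at 6 and 12 h of mercury and at 12 h of the other metals. In non-treated cells its mean was 61.6 CPM at 1.5 h, 60.4 at 3 h, 61.1 at 6 h, 70.2 at 12 h and 87 CPM at 24 h. With mercury it stood at 20.7, 21.5 and 26 CPM at 6 h, all below the non-treated libraries at 66.1, 57.8 and 59.4 CPM, an LFC of -1.42 (SE 0.19, adjusted p = 3.48e-08, rank 3 of 7253 among the falls). After 12 h of mercury the libraries had 9.82, 18.1 and 8.96 CPM against 77.5, 64.8 and 68.4 CPM. That LFC of -2.50 (SE 0.21, adjusted p = 1.05e-15) was the largest fall of any of the 7253 genes in the comparison.

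With arsenic the first called fall of CTDSP1 was at 12 h. Its level was 24.4, 34.8 and 23.4 CPM after 12 h of arsenic, again below every non-treated library of that time (LFC -1.35, SE 0.18, adjusted p = 6.06e-08, rank 5). At 6 h the arsenic libraries, at 47.1, 35.5 and 39.4 CPM, also lay below all 3 non-treated ones, but the LFC of -0.59 (SE 0.18) had an adjusted p of 0.106 and was not called. It passed in DESeq2 (adjusted p = 0.0469) and in a fit of only these 6 libraries (adjusted p = 0.03). With cadmium the 12 h libraries held 32.7, 32.1 and 26.3 CPM (LFC -1.21, SE 0.18, adjusted p = 1.12e-06, rank 4).

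KLHL13 was steady in non-treated cells, with means of 28.7, 29.4, 28.7 and 27.5 CPM from 1.5 to 12 h, and had 38.5 CPM at 24 h. Mercury libraries at 6 h held 19.8, 17.1 and 13 CPM against 24.9, 31.1 and 30.2 CPM, a gap between the groups and an LFC of -0.80 (SE 0.20, adjusted p = 0.00604). This call was lost without mercury 6 h replicate 3 (LFC -0.63, adjusted p = 0.0706). At 12 h mercury gave 5.32, 13.6 and 9.28 CPM against 28, 23.5 and 31.2 CPM (LFC -1.52, SE 0.22, adjusted p = 2.17e-07).

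KLHL13 was also called lower at 12 h of arsenic and of cadmium. Arsenic libraries were at 12.9, 18.4 and 15.5 CPM, below all non-treated ones, with an LFC of -0.82 (SE 0.20, adjusted p = 0.00632). Leaving out arsenic 12 h replicate 1 (adjusted p = 0.0788) or non-treated 12 h replicate 3 (adjusted p = 0.0543) ended the call. Cadmium libraries were at 14.1, 20.8 and 15.1 CPM, with an LFC of -0.71 (SE 0.21, adjusted p = 0.0189). That call was lost without any 1 of 4 of the 6 libraries (cadmium replicates 1 and 3, non-treated replicates 1 and 3), where the adjusted p ran up to 0.11.

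CPA4 was the least steady in non-treated cells, where its mean was 48.3 CPM at 1.5 h, 35.2 at 3 h, 28.1 at 6 h, 29.8 at 12 h and 61.5 CPM at 24 h. The LFC of non-treated 6 h against 1.5 h was -0.78 (adjusted p = 0.119) and that of 12 h against 1.5 h was -0.70 (adjusted p = 0.0622). Neither passed, although the 12 h difference did in DESeq2 (adjusted p = 0.0366), and without non-treated 12 h replicate 2 (LFC -0.90, adjusted p = 0.0362). CTDSP1 and KLHL13 had LFCs between -0.06 and 0.19 in the same 2 comparisons.

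After 12 h of arsenic CPA4 stood at 12.3, 18.7 and 16.8 CPM against 27.1, 37.4 and 24.9 CPM, with no overlap (LFC -0.89, SE 0.25, adjusted p = 0.0203). The call was lost without arsenic 12 h replicate 1 (LFC -0.74, adjusted p = 0.17), arsenic 12 h replicate 3 (-0.94, 0.05004) or non-treated 12 h replicate 2 (-0.70, 0.206). With mercury at 12 h it stood at 15.6, 10.7 and 17.9 CPM (LFC -1.01, SE 0.26, adjusted p = 0.00338), a call that was lost without mercury 12 h replicate 2 (LFC -0.81, adjusted p = 0.0565). Cadmium libraries of 12 h spread from 21.4 to 43.6 CPM across the non-treated range, with an LFC of -0.05 (95% interval -0.53 to 0.43, adjusted p = 0.938). At 6 h, no metal gave a called difference in CPA4, and the 3 cadmium libraries, at 20.9, 30.4 and 51.2 CPM, were further apart than the groups.

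**Figure D2:**
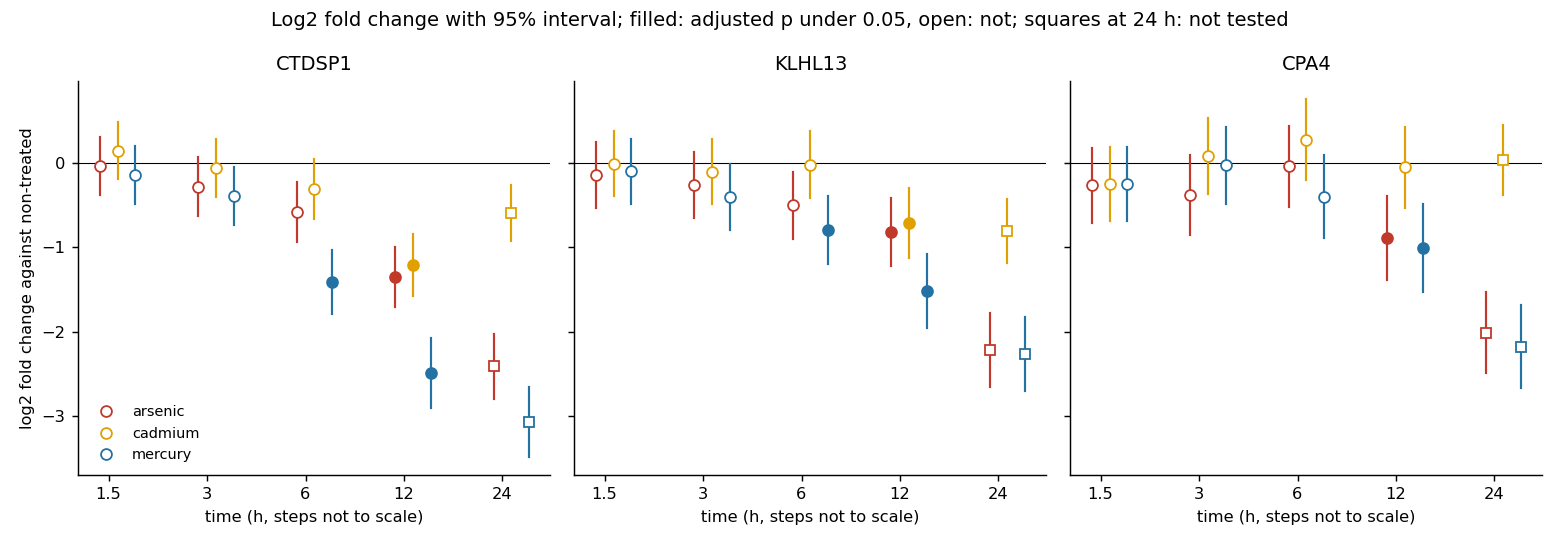
LFC of each gene against non-treated cells of the same time (vertical axis, log2 scale) by time and metal, with 95% intervals. Filled points passed an adjusted p under 0.05, open points did not, and squares at 24 h were not tested. Called falls start at 6 h with mercury and at 12 h with arsenic, and the cadmium points of CPA4 stay near 0.

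Whether a fall grew from 6 to 12 h was tested as the difference of the metal effects. It did for CTDSP1 with mercury (difference of LFCs -1.08, SE 0.28, adjusted p = 0.0318), 1 of the 3 genes, against 1.15% of all genes. That call was lost in 7 of the 12 fits that each left out 1 library, with an adjusted p of up to 0.131. Differences of -0.77 with arsenic (adjusted p = 0.222) and -0.90 with cadmium (adjusted p = 0.112) did not pass for CTDSP1, nor did any for KLHL13 or CPA4. The cadmium difference for CTDSP1 did pass in DESeq2 (adjusted p = 0.0289).

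Mercury at 24 h had the lowest mean of the 20 groups for every one of the 3 genes, although single libraries of other groups lay below that mean for each gene. For KLHL13 and CPA4 some also lay below the lowest mercury 24 h library. CTDSP1 had 8.18, 5.58 and 17.5 CPM, KLHL13 had 9.13, 8.06 and 6.61 CPM, and CPA4 had 12, 17.4 and 11.2 CPM. Since the non-treated 24 h libraries helped to choose the genes, mercury and cadmium at 24 h were tested against the 12 non-treated libraries of 1.5 to 12 h, with time not matched. On that footing all 3 genes were lower with mercury (background 15.7%), with LFCs of -2.61 for CTDSP1 (adjusted p = 3.56e-19), -1.84 for KLHL13 (adjusted p = 3.47e-12) and -1.34 for CPA4 (adjusted p = 7.38e-07). Without mercury 24 h replicate 3, the library at 17.5 CPM, the LFC of CTDSP1 was -3.20, and it stayed called. Against the matched non-treated 24 h libraries, without a test, the mercury LFCs were -3.07, -2.27 and -2.18 in the same order of genes.

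After 24 h of cadmium the 3 genes stood nearer to their non-treated levels than after arsenic or mercury, a difference that was tested against mercury only, as given further on. CTDSP1 had 47.7, 56.1 and 69.7 CPM there, KLHL13 had 20.7, 19.5 and 26.2 CPM, and CPA4 had 71.6, 58.7 and 58.2 CPM. Against the 12 earlier non-treated libraries, CTDSP1 (LFC -0.14, 95% interval -0.41 to 0.13, adjusted p = 0.634) and KLHL13 (LFC -0.38, 95% interval -0.70 to -0.07, adjusted p = 0.142) were not called. CPA4, 1 of the 3, was called higher (LFC 0.87, SE 0.16, adjusted p = 9.49e-05), where 4.56% of all genes were. Non-treated cells of 24 h also had more CPA4 than those of 6 and 12 h, and against them cadmium gave an LFC of 0.04 without a test, next to -0.60 for CTDSP1 and -0.81 for KLHL13.

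Cadmium was also compared with itself, a comparison added after the values had been seen. CTDSP1 was higher at 24 h than at 12 h of cadmium (LFC 0.92, SE 0.19, adjusted p = 0.00069), as was CPA4 (LFC 1.14, SE 0.23, adjusted p = 0.000581), so 2 of 3 genes passed against a background of 2.41%. Non-treated means also rose over these times, from 29.8 to 61.5 CPM for CPA4 and from 70.2 to 87 CPM for CTDSP1. For KLHL13 they went from 27.5 to 38.5 CPM. The cadmium means of CPA4 were 29.2 and 62.8 CPM, so this comparison does not separate cadmium from time. KLHL13 had an LFC of 0.38 (95% interval -0.04 to 0.81, adjusted p = 0.306). For mercury the same LFCs were -0.27, -0.27 and -0.12 for CTDSP1, KLHL13 and CPA4, and none passed (adjusted p from 0.681 to 0.906).

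The metals were then set against each other directly, without non-treated libraries. Cadmium exceeded mercury at 24 h for all 3 genes (background 9.7%), with LFCs of 2.47 for CTDSP1 (SE 0.21, adjusted p = 1.06e-14), 1.46 for KLHL13 (SE 0.23, adjusted p = 1.46e-06) and 2.22 for CPA4 (SE 0.25, adjusted p = 8.91e-11). Without mercury 24 h replicate 3 that of CTDSP1 was 3.06. At 12 h it also did for all 3 (background 1.48%), with LFCs of 1.28 (adjusted p = 7.48e-05), 0.81 (adjusted p = 0.0422) and 0.96 (adjusted p = 0.0264). The KLHL13 call at 12 h was lost without cadmium replicate 2 or 3 or mercury replicate 1 or 3, where the LFC went down to 0.55 and the adjusted p up to 0.334. The CPA4 call was lost without cadmium replicate 1 (LFC 0.58, adjusted p = 0.378) or mercury replicate 1 or 2 (adjusted p = 0.0613 and 0.222).

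At 6 h cadmium exceeded mercury for CTDSP1 (LFC 1.10, SE 0.19, adjusted p = 4.58e-05) and KLHL13 (LFC 0.78, SE 0.20, adjusted p = 0.0148), 2 of 3 genes against 1.64% of all. Without cadmium 6 h replicate 1, the library low in mitochondrial reads, the KLHL13 call was lost (LFC 0.61, adjusted p = 0.164), and it was also lost without mercury 6 h replicate 2 or 3. CPA4 was not called at 6 h (LFC 0.68, adjusted p = 0.109), but without that same cadmium library it was (LFC 0.94, adjusted p = 0.023).

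For CTDSP1, arsenic libraries exceeded mercury libraries at 6 h (LFC 0.83, SE 0.19, adjusted p = 0.00331), the only call among the 3 genes where 1.41% of all were called, and at 12 h (LFC 1.14, SE 0.22, adjusted p = 0.000234), again 1 of 3 against 2.42%. KLHL13 was close to the threshold in that 12 h comparison (LFC 0.70, adjusted p = 0.0544), which it passed in DESeq2 (adjusted p = 0.045) and without mercury 12 h replicate 2 (LFC 1.05, adjusted p = 0.0122). CPA4 did not differ detectably there (LFC 0.12, 95% interval -0.43 to 0.67, adjusted p = 0.861). Arsenic and cadmium at 12 h were not told apart for CTDSP1 (LFC -0.14, 95% interval -0.54 to 0.25) or KLHL13 (LFC -0.11, 95% interval -0.54 to 0.33). CPA4, 1 of 3 against a background of 3.87%, was lower with arsenic than with cadmium (LFC -0.84, SE 0.26, adjusted p = 0.0349). Without cadmium 12 h replicate 1, the library at 43.6 CPM, that LFC was -0.46 and the adjusted p 0.402, and the call was also lost without arsenic 12 h replicate 1 or 3 (adjusted p = 0.219 and 0.0561).

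Over the 20 group means, the order of levels ran from mercury 24 h at the bottom to non-treated 24 h at the top for CTDSP1 (10.4 to 87 CPM) and KLHL13 (7.93 to 38.5 CPM), and to cadmium 24 h for CPA4 (13.5 to 62.8 CPM). The 5 lowest groups of CTDSP1 were mercury 24 h, mercury 12 h, arsenic 24 h, mercury 6 h and arsenic 12 h. Most neighbours in these orders cannot be told apart, since the ranges of their libraries overlapped in 16 of 19 neighbouring pairs for CTDSP1, 19 of 19 for KLHL13 and 15 of 19 for CPA4. For CTDSP1 the gaps lay above arsenic 24 h, above cadmium 12 h and above non-treated 1.5 h. For CPA4 they lay above arsenic 12 h, mercury 6 h, cadmium 1.5 h and non-treated 1.5 h.

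The levels of CTDSP1 and KLHL13 ran closely together, with a Pearson r of 0.972 (Spearman rho 0.917) across the 20 group means of log2 CPM. For CPA4 r was 0.876 with CTDSP1 and 0.849 with KLHL13 (rho 0.802 and 0.755). The points share libraries, normalization and the 24 h arsenic fall for which the genes were chosen, so these are descriptions. Of 7252 other genes, AHNAK2 (r 0.973), KLHL13, AURKB (0.958), TUBB4B (0.949) and MARCKS (0.944) were most like CTDSP1. KLHL13 was most like CTDSP1, then LNPEP (0.966), AHNAK2 (0.946), TUBB4B (0.942) and MARCKS (0.939), and CPA4 was most like AHNAK2 (0.929), FASN (0.925), CTDSP1, TRIM47 (0.869) and LYPLA2 (0.866). Ranked by Spearman rho instead, 2 of the 5 remained for CTDSP1, 2 for KLHL13 and 3 for CPA4.

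**Figure D3:**
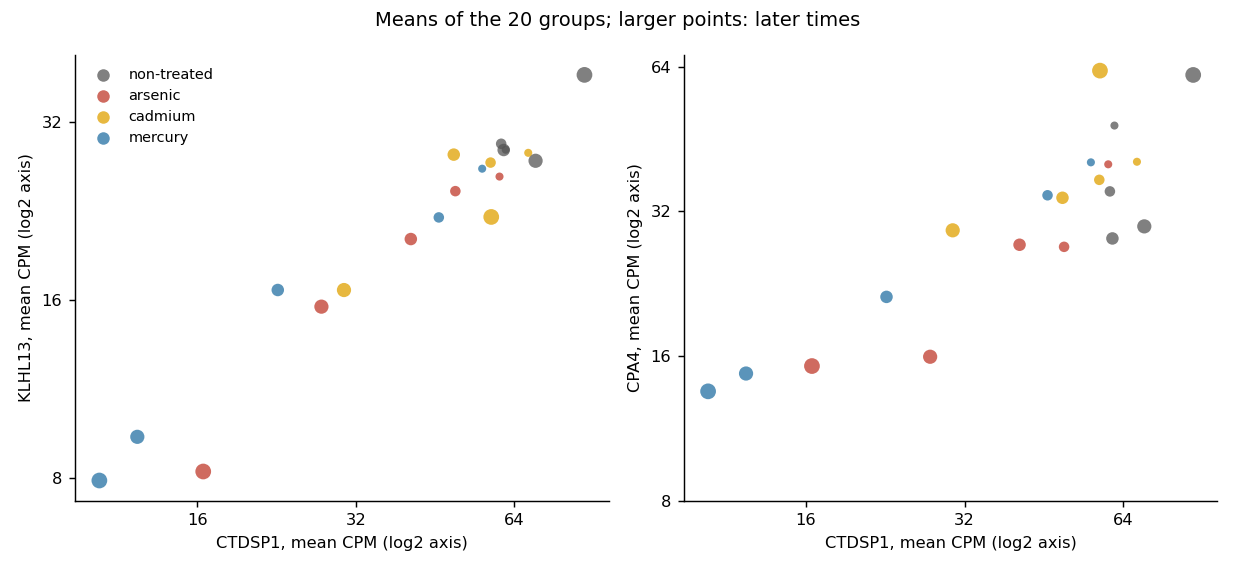
Mean CPM of KLHL13 (left) and CPA4 (right) against that of CTDSP1 in the 20 groups, on log2 axes, with larger points for later times. CTDSP1 and KLHL13 lie near 1 line (r 0.972), whereas CPA4 scatters more (r 0.876), with non-treated and cadmium groups spread along its axis.

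The 12 h groups are among the means that chose the genes most like the members, so their values at that time are a description. AHNAK2, which encodes a large scaffold protein, was called lower at 12 h with each metal, by LFCs of -0.69 for arsenic (adjusted p = 0.000337), -0.52 for cadmium (adjusted p = 0.00802) and -1.04 for mercury (adjusted p = 3.19e-08). LNPEP, a membrane aminopeptidase, was lower after arsenic (LFC -0.87, adjusted p = 0.00101) and mercury (LFC -1.07, adjusted p = 1.75e-05), and had an LFC of -0.40 after cadmium (adjusted p = 0.179). MARCKS, an actin-binding substrate of protein kinase C, had -0.45, -0.25 and -0.86, all called, and the tubulin gene TUBB4B had -0.44, -0.35 and -0.77, all called as well. FASN, the fatty acid synthase, was called lower with mercury only (-0.49, adjusted p = 0.000444), while TRIM47 and LYPLA2 were not called with any metal at 12 h.

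Among the relatives of CTDSP1 only CTDSP2 was called at 12 h. Of 9 other phosphatase genes with the same kind of catalytic domain or the same substrate, all tested, none was called lower or higher after 12 h of arsenic, and 1 was called lower with cadmium and with mercury, CTDSP2 each time. Of all genes, 1.74% were lower and 2.37% higher with arsenic, and 2.99% and 7.16% were lower with cadmium and mercury. For arsenic, cadmium and mercury in this order, the median over these 9 genes was -0.09, -0.11 and -0.19, against 0.00, -0.02 and -0.02 for all genes tested. CTDSP2, the closest in function together with CTDSPL, averaged 74.7 CPM in non-treated cells at 12 h and 56.3 CPM with arsenic (LFC -0.41, adjusted p = 0.126), and was lower after mercury (LFC -0.64, adjusted p = 0.0021) and cadmium (LFC -0.63, adjusted p = 0.00561). CTDSPL had LFCs of -0.09, -0.35 and -0.21, none called.

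REST, the repressor that CTDSP1 works with, was higher after 12 h of arsenic (LFC 0.52, SE 0.13, adjusted p = 0.011), 1 of 13 tested genes of its corepressor complex, where 2.37% of all genes were called higher. With cadmium (0.14, adjusted p = 0.624) and mercury (0.30, adjusted p = 0.137) REST was not called. EHMT2, a histone methyltransferase of that complex, was lower with mercury (LFC -0.67, adjusted p = 0.00938). Of 25 neuronal genes known as REST targets only 8 had enough counts to be tested, and with arsenic at 12 h none of them was called (median LFC -0.14). Over all genes, 1.74% were lower and 2.37% higher there. BDNF, a neuronal growth factor, was called higher with cadmium (LFC 0.86, adjusted p = 0.00167) and mercury (LFC 0.58, adjusted p = 0.0317), and the sodium channel gene SCN2A was lower with mercury (LFC -0.71, adjusted p = 0.0197). They were the only tested targets called at 12 h. Of all genes, 5.19% were higher with cadmium, and 8.89% were higher and 7.16% lower with mercury. NEFL, the neurofilament light chain and the largest LFC of that list, had -1.61, -1.94 and -0.86 at 12 h and was not called then, with at most 29 counts. At 24 h of arsenic NEFL was called lower (LFC -4.49, SE 0.79, adjusted p = 1.56e-05), with a mean of 0.21 CPM against 5.37 CPM in non-treated cells. It was the only 1 of the 8 tested targets called there, where 7.75% of all genes were lower. SYP, the synaptic vesicle protein synaptophysin, had at most 12 counts and was not called at 12 or 24 h. The summed level of 7 neuron markers was 26.5 to 29.2 CPM after 12 h of arsenic, 26.3 to 28.1 CPM with mercury, 15.4 to 25.8 CPM with cadmium and 17.5 to 18.6 CPM in non-treated cells, with RBFOX3, GAD2 and ELAVL4 at 3 counts or fewer. Its part in the CTDSP1 result was not tested.

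For KLHL13, 23 of 44 other members of the KLHL family and close relatives could be tested. At 12 h of arsenic 1 was lower (IVNS1ABP, LFC -0.42) and 2 were higher (KLHL21 and KLHL42), where 1.74% of all genes were lower and 2.37% higher. With cadmium 1 was lower (KLHL12, LFC -0.57) and 1 higher (KLHL21), against 2.99% of all genes lower and 5.19% higher. With mercury 1 was lower (KLHL22) and 5 were higher (among them KLHL21, KLHL28, KLHL42 and KLHL8), against 7.16% of all genes lower and 8.89% higher. The median LFCs in this order of metals were -0.01, 0.18 and 0.11. KLHL21, another CUL3 adaptor of Aurora B, went the opposite way to KLHL13 with every metal, with LFCs at 12 h of 0.49 (adjusted p = 0.0038), 0.96 (adjusted p = 1.6e-09) and 1.17 (adjusted p = 5.07e-13). KLHL22, an adaptor for the mitotic kinase PLK1, was lower with mercury (LFC -1.74, adjusted p = 0.013) on at most 38 counts per library. KLHL29 (LFC 1.21 with mercury) and KLHL15 (1.09 with mercury) were not called with any metal at 12 h. KLHL9, the partner of KLHL13, had at most 2 counts in any library and was not tested.

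Of 11 genes of the CUL3 ligase core none was called with arsenic at 12 h, where 1.74% of all genes were lower and 2.37% higher. COPS2, the only 1 of the 11 called with cadmium and a subunit of the signalosome that strips NEDD8 from cullins, was higher with cadmium (LFC 0.55, adjusted p = 0.00124), where 5.19% of all genes were, and CUL3 itself was higher with mercury (LFC 0.51, adjusted p = 0.009). With mercury 2 of the 11 were higher, CUL3 and COPS2 (0.34), and 1 was lower, the RING subunit gene RBX1 (-0.41), where 8.89% of all genes were higher and 7.16% lower. Of the 4 genes of the chromosomal passenger complex, which holds Aurora B, none was called at 12 h of arsenic or cadmium. Of all genes, 1.74% and 2.99% were lower there, and 2.37% and 5.19% higher. At 12 h of mercury 3 were lower (median LFC -0.55), where 7.16% of all genes were lower and the median of all genes was -0.02. These were AURKB (LFC -0.61, adjusted p = 0.000111), CDCA8, which encodes the subunit borealin (-0.63, adjusted p = 1.26e-05), and BIRC5, which encodes survivin (-0.38). AURKB had an LFC of -0.27 at 12 h of both arsenic (adjusted p = 0.24) and cadmium (adjusted p = 0.169). At 24 h of arsenic 2 of these 4 genes were lower and none higher, where 7.75% of all genes were lower. They were AURKB (LFC -0.60, adjusted p = 0.000139) and BIRC5 (LFC -0.28, adjusted p = 0.0158).

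Few other genes of the CPA4 family had enough counts. Of 22 other M14 carboxypeptidase genes 4 had enough counts to be tested (CPD, CPZ, AGBL5 and AGTPBP1), and none of them was called with any metal at 12 h. CPD, which trims peptides along the secretory route, had LFCs of -0.01, -0.18 and 0.13. The tubulin deglutamylase gene AGTPBP1 had -0.28, -0.56 and -0.61, and AGBL5 had -0.08, -0.36 and -0.45. The genes CPA1 and CPA5, which lie near CPA4 on the chromosome, had at most 4 and 8 counts, and CPE had at most 16. LXN and RARRES1, which encode carboxypeptidase inhibitors, had no count in any library.

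**Figure D4:**
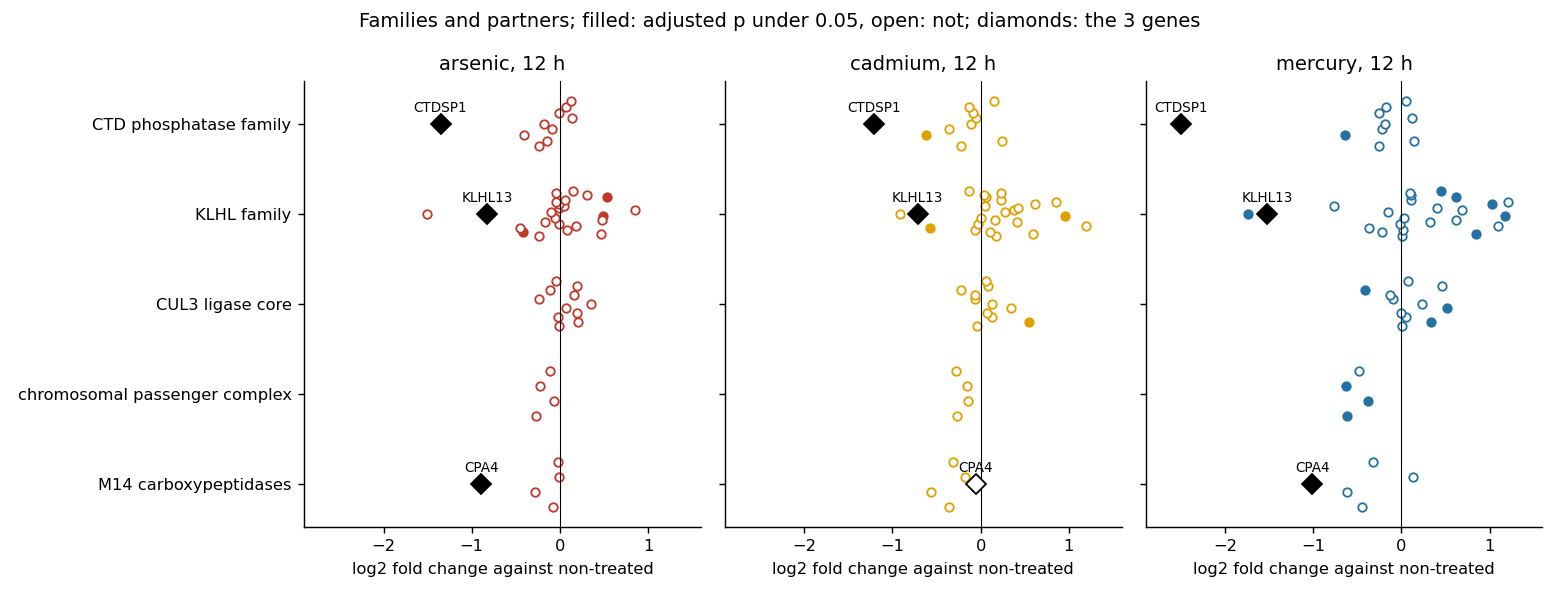
LFC at 12 h (horizontal axis, log2 scale) of the tested genes in 5 lists around the members, for arsenic, cadmium and mercury. Filled points passed an adjusted p under 0.05, open points did not, and diamonds mark CTDSP1, KLHL13 and CPA4. CTDSP1 lies left of its 9 relatives with every metal, and KLHL13 and CPA4 lie left of most of theirs with arsenic and mercury.

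Genes beside the members on the chromosome were read from the same fit. Over all genes tested, 1.74% were lower and 2.37% higher at 12 h of arsenic. The same shares were 2.99% and 5.19% for cadmium, and 7.16% and 8.89% for mercury. Of 12 tested genes that start within 500 kb of CTDSP1 none was called with arsenic at 12 h, 1 was lower with cadmium (STK36, LFC -0.66, adjusted p = 0.0148) and 1 was lower with mercury (BCS1L, LFC -0.69, adjusted p = 0.0148). Both tested neighbours of KLHL13, WDR44 and DOCK11, were called with no metal at 12 h. Of 7 tested neighbours of CPA4, MEST was lower with arsenic (LFC -1.45, adjusted p = 5.56e-05) and with mercury (LFC -1.28, adjusted p = 0.0002), and had an LFC of -0.65 with cadmium (adjusted p = 0.0963). MEST, a gene expressed from the paternal copy alone in many tissues, starts 193 kb from CPA4. UBE2H, a ubiquitin-conjugating enzyme that starts on the other side of CPA4, was higher with arsenic (LFC 0.39, adjusted p = 0.0026), cadmium (0.46) and mercury (0.72), and TMEM209 was higher with mercury (0.65, adjusted p = 0.0458). The neighbours were named after their values were seen, as were the genes called within the lists that do not hold 1 of the 2 largest LFCs of their list.

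**Figure D5:**
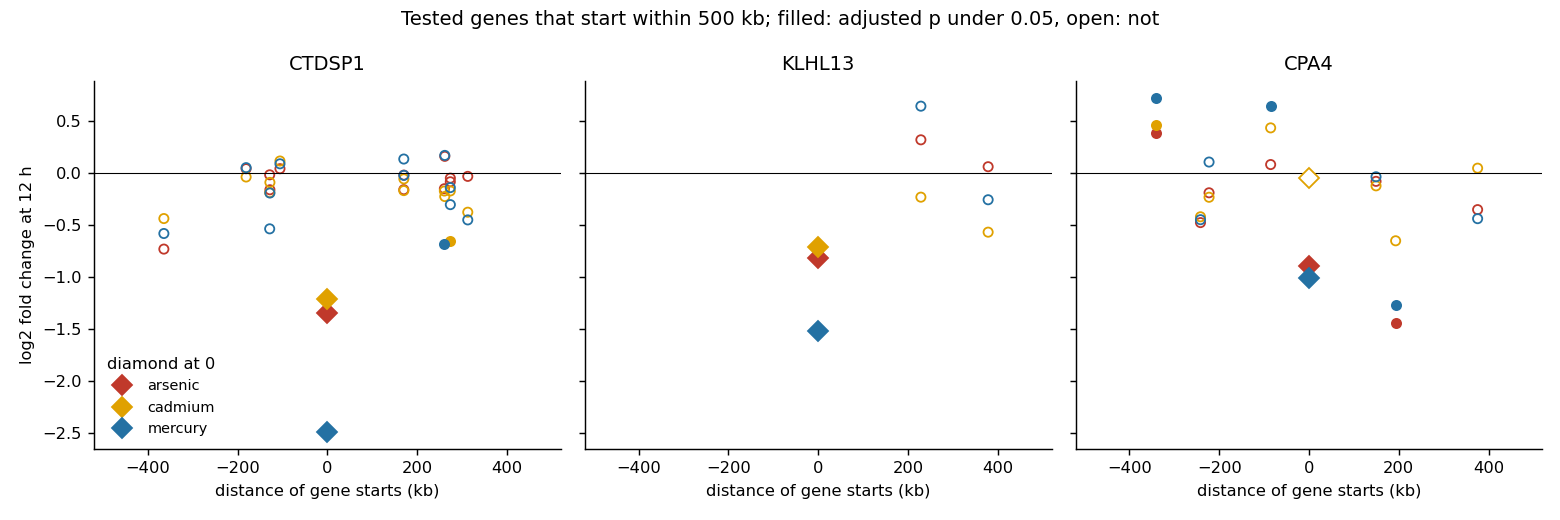
LFC at 12 h (vertical axis, log2 scale) of tested genes that start within 500 kb of CTDSP1, KLHL13 or CPA4, against the distance between gene starts in kb. Diamonds at 0 are the members, filled points passed an adjusted p under 0.05 and open points did not. The neighbours of CTDSP1 had a median LFC of -0.04 for arsenic and -0.17 for both other metals, and the low points beside CPA4 are MEST (-1.45 with arsenic and -1.28 with mercury).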

How the data were processed

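The authors sequenced 3′ ends of polyadenylated RNA (QuantSeq FWD), aligned reads to GRCh38 with STAR 2.7.9a and deposited raw counts per gene, assigned by strand. No other unit was used. The 92 spike-in rows held 0 counts and were left out.

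Groups came from sample titles. Genes passing filterByExpr (minimum count 10, minimum total 15) were normalized by TMM and fitted with edgeR 4.0.16 (R 4.3.3) quasi-likelihood over all 60 libraries, with 1 coefficient per group. P-values were adjusted by Benjamini-Hochberg over the 12341 genes of each comparison, and intervals are 95%. CPM are edgeR's. Totals of 2215276 to 4404609 counts limit the precision of genes with few counts. On simulated data the fit was tested before use.

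The members and gene lists were chosen with earlier results of these data known. Besides the members, genes were named by a rule: fixed partners, the 2 largest LFCs at 12 h per list, the 5 genes most like each member, and the gene next below them in the order of falls. Of the genes in the table, 99.09% had the same location in GENCODE 44, and CTDSP1 was among the others. Promoters and microRNAs came from RefSeq (GRCh38.p14), where all 3 members matched. Alternatives were DESeq2 1.42.0, RLE size factors, no filter, a stricter filter (CPM of at least 3 in 3 libraries), a replicate block, fits of only the groups compared, and leaving out each library.

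Replicates of a group differed beyond sampling noise (lowest chi-square per degree of freedom 2.02), so none was merged. Values of some genes in the lists are not reported here.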

Additional observations from a re-analysis of the deposited data

Results flagged for a closer look

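The effect of mercury on CTDSP1 differed between times: its LFC against non-treated cells was -2.50 at 12 h and -1.42 at 6 h, a difference of -1.08 (SE 0.28, adjusted p = 0.0318 by edgeR's quasi-likelihood test), and all mercury libraries were below all non-treated ones at both times. Removing a single library from the fit ended the call for 7 of the 12 libraries concerned. Groups of 3 libraries were too small to look for single libraries far from the rest.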

How the results depend on the processing

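Of 105 tested values (3 genes in 35 comparisons), all 105 kept their side of the threshold with RLE size factors, with the stricter filter and with the replicate block. Direction was not always kept: the uncalled LFC of CPA4 in cadmium against mercury at 1.5 h, 0.0018 in the main fit, was negative with each of these settings. The replicate numbers were not taken as pairs (4 of 45 pairs of groups had a correlation of deviations over 0.1), and the replicate block left 214 genes lower after 12 h of arsenic, against 215. None of the alternatives reversed a called value. Without cadmium 6 h replicate 3, the uncalled LFC of CPA4 in arsenic against cadmium at 6 h went from -0.32 to 0.10. With DESeq2, 4 values newly passed: CTDSP1 in arsenic 6 h (LFC -0.58) and in the cadmium effect of 12 minus 6 h (-0.91), KLHL13 in arsenic against mercury at 12 h (0.69) and CPA4 in non-treated 12 h against 1.5 h (-0.71). Without a filter the cadmium effect of CTDSP1 (-0.91) and CPA4 in non-treated 12 h (-0.70) and 6 h (-0.80) against 1.5 h passed, and KLHL13 in cadmium against mercury at 12 h (0.80) did not. In fits of only the libraries compared, CTDSP1 in arsenic 6 h (-0.58) and the cadmium effect (-0.90), and CPA4 in non-treated 12 h (-0.70) and 6 h (-0.79), passed, while KLHL13 in cadmium against mercury at 12 h (0.81) and 6 h (0.77) did not. With only the non-treated 12 h libraries as reference, cadmium and mercury at 24 h kept all calls. The cause of these changes was not tested.

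Leaving out 1 library changed a call for CPA4 with arsenic at 12 h (LFC -1.02 to -0.70) and with mercury at 12 h (-1.19 to -0.81), KLHL13 with arsenic at 12 h (-0.96 to -0.71), with cadmium at 12 h (-0.92 to -0.62) and with mercury at 6 h (-0.92 to -0.63). Among comparisons of metals it did so for CPA4 in arsenic against cadmium at 12 h (-1.02 to -0.46) and in cadmium against mercury at 12 h (0.58 to 1.14) and 6 h (0.25 to 0.94), and for KLHL13 in arsenic against mercury at 12 h (0.43 to 1.05) and in cadmium against mercury at 12 h (0.55 to 1.17) and 6 h (0.61 to 0.92). The same held for the mercury effect of CTDSP1 at 12 minus 6 h (-1.49 to -0.89) and CPA4 in non-treated 12 h against 1.5 h (-0.90 to -0.58). Of the 105 values, 92 changed no call whichever library was left out.

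Genes called lower numbered 38 after 6 h of arsenic and 62 in DESeq2, 55 and 83 after 6 h of cadmium, and 11 and 17 after 1.5 h of mercury. They numbered 1 at 1.5 h and 2 at 3 h of arsenic, against 8 and 10 in DESeq2 and 25 and 20 without a filter, and 0 at both times of cadmium, against 3 and 1 in DESeq2 and 60 and 11 without a filter. Counts as low as 13 limit what can be told of KLHL13.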
